A study of Mus musculus with 12 samples.

Results

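The genes described here encode titin and 8 proteins that anchor, crosslink or lengthen the filaments of the heart muscle sarcomere: Ttn, Tcap, Ldb3, Myoz2, Nebl, Lmod2, Myom1, Myom2 and Myom3. They were chosen by gene symbol as rows present in both deposited count tables, and all 9 were found among the 16673 genes that the tables share. RNA had been sequenced from the left ventricle of male mice in which Ddx5, a gene for a DEAD-box RNA helicase, was deleted in heart muscle cells to ask what the helicase does in the heart. The 12 libraries fell into 4 groups of 3. The mCKO mice were DDX5fl/fl with MYH6Cre, a Cre recombinase expressed from the Myh6 promoter of heart muscle cells, and were untreated and 8 weeks old. Their controls, CTR1, were untreated 8-week-old mice with Ddx5flox/flox alleles and no Cre. The iCKO mice carried Ddx5flox/flox with Myh6MerCreMer, a Cre that tamoxifen activates, and were injected intraperitoneally for 5 days with tamoxifen, 20 mg/kg/day. Their controls, CTR2, were Ddx5flox/flox mice without Cre given the same tamoxifen. The design text places collection of the iCKO hearts 7 days after tamoxifen and does not say from which injection. No control group carried Cre, so that effects of the recombinase itself and of the deletion cannot be told apart. Nothing in the labels says that libraries of 1 group came from different animals, so p-values measure the spread between these libraries, which may be technical.

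Library totals lay between 19682268 and 25871882 gene counts. Levels are given as CPM, counts scaled to a common library size after TMM correction within each table, so that levels of mCKO with CTR1 and of iCKO with CTR2 stand on separate scales. Ddx5 was measured at 233, 232 and 218 CPM in mCKO libraries, against 636, 636 and 397 CPM in CTR1 libraries, and its mean was 40.9% of control. In iCKO libraries it was at 216, 219 and 192 CPM, against 566, 697 and 597 CPM in CTR2 libraries, and its mean was 33.7% of control. Every knockout library was below every one of its controls. Of 12 cardiomyocyte markers, none was at 0 in all libraries of a group.

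Titin is a single giant protein chain that spans from the Z-disc, the border of the sarcomere, to the M-band at its middle, and acts as a molecular spring that carries passive tension in heart muscle. At the Z-disc its end is joined by telethonin (Tcap), beside proteins that bind alpha-actinin, calcineurin and actin. At the M-band the myomesins link titin with the thick filaments. Mutations of titin and of several of these partners cause cardiomyopathy in people.

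The level of a gene was set beside that of another only as CPM per kilobase of its longest coding transcript. On that scale Tcap was highest and Myoz2 next in all 4 groups, at 1996 ± 903 and 972 ± 230 CPM per kb in mCKO, 2043 ± 643 and 1091 ± 198 in CTR1, 643 ± 104 and 331 ± 41.4 in iCKO, and 1216 ± 134 and 1066 ± 74.7 in CTR2 (SD, n = 3). Between these neighbours the SD intervals met in CTR2 and in mCKO but not in iCKO or CTR1. In CTR2 the order went on with Myom2, Myom1, Lmod2, Ldb3, Nebl and Ttn, at 750.0 ± 74.8, 456 ± 16.9, 323 ± 11.7, 300 ± 23.7, 60.2 ± 10.2 and 35.9 ± 4.12 CPM per kb. Lmod2 and Ldb3 lay within each other's spread there. In iCKO the order was Lmod2, Myom1, Ldb3, Myom2, Nebl and Ttn, at 269 ± 30.3, 213 ± 12.9, 186 ± 62.5, 177 ± 26.1, 21.3 ± 7.91 and 16.9 ± 6.51 CPM per kb, where Myom1, Ldb3 and Myom2, and likewise Nebl and Ttn, lay within their spread. In mCKO and CTR1 Myom2, Myom1, Ldb3 and Lmod2 all lay between 247 and 386 CPM per kb with overlapping spreads. Nebl and Ttn were next in both, at 44.0 ± 7.91 and 35.4 ± 20.6 CPM per kb in mCKO and 41.1 ± 4.81 and 42.4 ± 21.7 in CTR1, within each other's spread. Myom3 was lowest throughout, at 1.41 ± 0.308 CPM per kb in mCKO, 1.28 ± 0.373 in CTR1, 1.62 ± 0.251 in iCKO and 1.19 ± 0.170 in CTR2. The 9 genes together held 0.542 to 1.6% of all counts of a library, and Ttn alone, with the longest coding transcript of the set, held 0.106 to 0.587%.

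**Figure D1:**
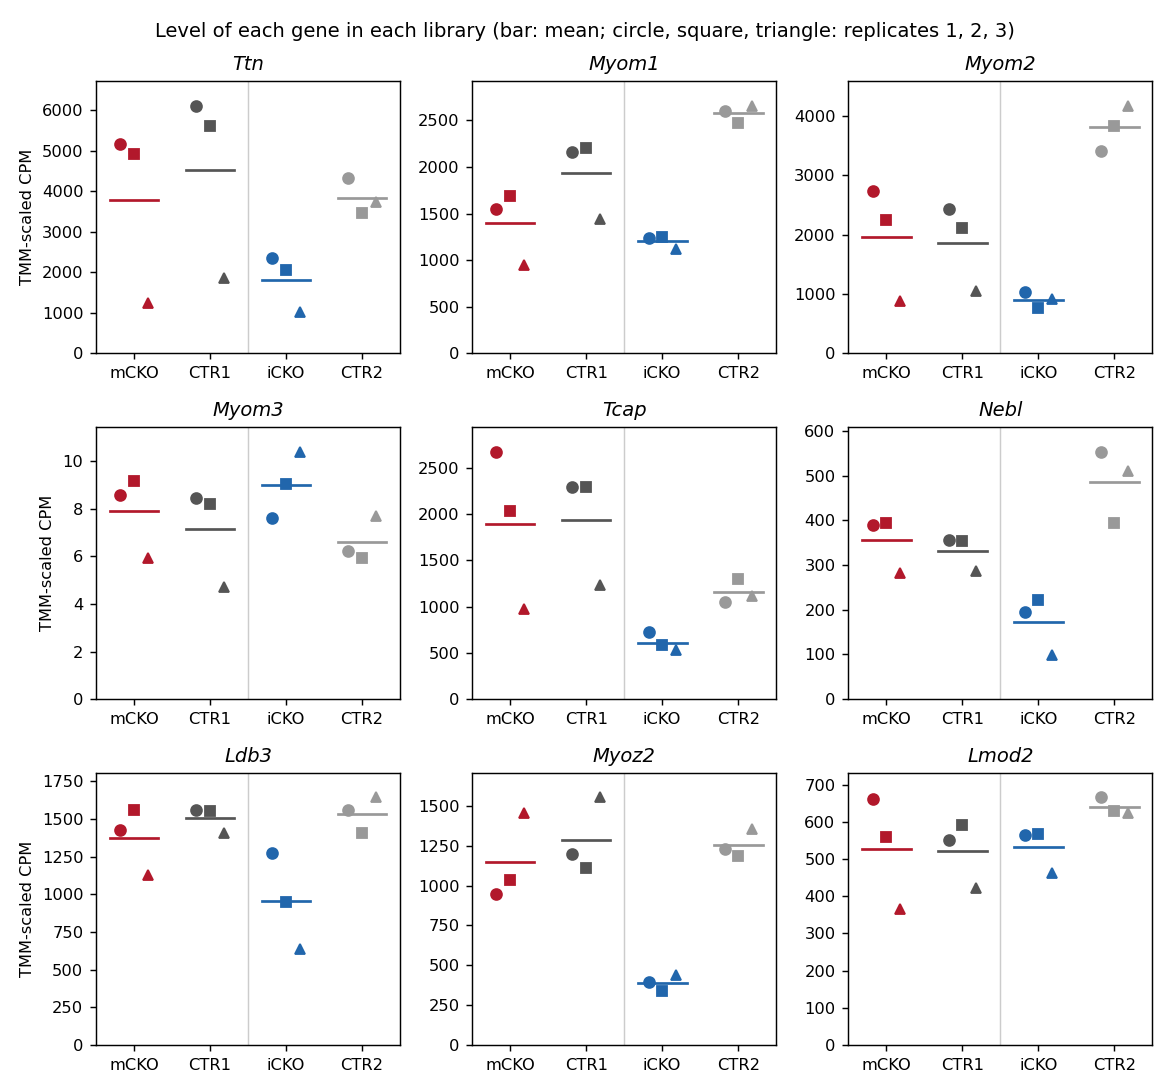
TMM-scaled CPM of each of the 9 genes (vertical axis, starting at 0) in every library of mCKO, CTR1, iCKO and CTR2, with a bar at the mean of the 3 libraries and a grey line between the 2 experiments. In iCKO all libraries lay below all CTR2 libraries for every gene but Myom3, while in mCKO every gene overlapped with CTR1 and the replicate 3 libraries (triangles) of both groups were the lowest for all genes but Myoz2.

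Tamoxifen-induced loss of Ddx5 was accompanied by lower mRNA of 7 of the 9 genes (edgeR quasi-likelihood test, Benjamini-Hochberg adjusted p under 0.05 over 13548 genes). None was called higher. Over all genes tested in iCKO, 19.5% were called lower and 25.2% higher, and with library sizes alone in place of TMM 13.5% were called lower and 33.9% higher. That scaling moved the median of all genes by 0.21 on the log2 scale, and the median log2 fold change of the 9 genes was -1.09 with TMM and -0.86 without it, against 0.03 and 0.24 over all genes. Whether fewer heart muscle cells or less RNA per cell gave a lower level cannot be told apart in bulk tissue.

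Among the longest of these transcripts, Ttn was measured at 2347, 2053 and 1023.5 CPM in iCKO libraries, against 4319, 3456.5 and 3732 CPM in CTR2 libraries. Replicate 3 was the lowest iCKO library and the groups did not overlap. The mean was 47.1% of control, and the log2 fold change was -1.09 ± 0.29 (SE, n = 3, edgeR quasi-likelihood adjusted p = 0.015). Without iCKO replicate 3 it was -0.84 (adjusted p = 0.0017), and without CTR2 replicate 1 the value of -1.0 missed the threshold (adjusted p = 0.055). Tcap, the small cap that binds the titin end at the Z-disc, was at 721, 582 and 530.5 CPM in iCKO libraries, against 1055, 1298 and 1112 CPM in CTR2 libraries. All iCKO values lay below all CTR2 values, at 52.9% of control on average (log2 fold change -0.92 ± 0.17, adjusted p = 0.0031). The longest coding transcripts of Ttn and Tcap measure 106.82 and 0.95 kb.

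Of the other Z-disc genes in the set, Myoz2 had the largest log2 fold change. Calsarcin-1, its product, tethers the phosphatase calcineurin to alpha-actinin. Myoz2 was at 396, 339 and 436 CPM in iCKO libraries, against 1230, 1186 and 1356 CPM in CTR2 libraries. The groups stood far apart, with an iCKO mean of 31.0% of control and a log2 fold change of -1.69 ± 0.16 (adjusted p = 1.4e-04). Nebl, which encodes nebulette, a cardiac relative of nebulin that binds actin at the Z-disc, was at 195, 221 and 99.5 CPM in iCKO libraries, against 554, 394.5 and 512 CPM in CTR2 libraries. Its iCKO libraries were all below the CTR2 ones, with replicate 3 lowest, and the mean was 35.3% of control (log2 fold change -1.50 ± 0.29, adjusted p = 0.0039; -1.27 without iCKO replicate 3). Ldb3 encodes ZASP, also called Cypher, a PDZ and LIM domain protein that holds alpha-actinin at the Z-disc. It was at 1275, 947 and 635.5 CPM in iCKO libraries, against 1558, 1404 and 1643 CPM in CTR2 libraries. The groups did not overlap, yet the iCKO libraries spread widely, and the mean was 62.1% of control (log2 fold change -0.69 ± 0.24, adjusted p = 0.046). Its call was lost in 7 of 15 alternatives, among them library sizes alone (-0.47, adjusted p = 0.16) and leaving out iCKO replicate 2 or any one of the CTR2 libraries (-0.75 to -0.64, adjusted p = 0.076 to 0.13). Without iCKO replicate 3 the value was -0.51 (adjusted p = 0.025).

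Lmod2 encodes leiomodin 2, which lengthens thin filaments at their pointed end, toward the middle of the sarcomere. It was at 566, 568 and 463 CPM in iCKO libraries, against 666.5, 629.6 and 624 CPM in CTR2 libraries. All iCKO values lay below the CTR2 values, with a mean of 83.2% of control, but the log2 fold change of -0.27 ± 0.15 did not pass the test (adjusted p = 0.17) and with library sizes alone was -0.05. Counting Lmod2, groups of 8 of the 9 genes did not overlap with iCKO lower, as for 27.0% of all genes tested (31.9% with iCKO higher).

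Of the myomesin genes, whose products crosslink titin and myosin at the M-band, 2 fell in iCKO and Myom3 did not pass the test. Myom2, which encodes M-protein of heart and fast skeletal muscle, was at 1027, 762 and 910.5 CPM in iCKO libraries, against 3416, 3840.2 and 4173.5 CPM in CTR2 libraries. With a mean of 23.6% of control it had the lowest share of the 9 genes, and its log2 fold change was -2.08 ± 0.17 (adjusted p = 9.6e-05). Myom1, the myomesin found in all striated muscle, was at 1238, 1251.5 and 1119 CPM in iCKO libraries, against 2597, 2470 and 2656 CPM in CTR2 libraries. Its groups were tight and separate, at 46.7% of control (log2 fold change -1.10 ± 0.14, adjusted p = 4.7e-04). Myom3, a minor member of the family, was at 7.60, 9.06 and 10.4 CPM in iCKO libraries, against 6.22, 5.93 and 7.70 CPM in CTR2 libraries. The groups overlapped at their edge, the mean was 136% of control, and the log2 fold change of 0.45 ± 0.20 did not pass the test (adjusted p = 0.10), though with library sizes alone it did (0.65, adjusted p = 0.026).

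**Figure D2:**
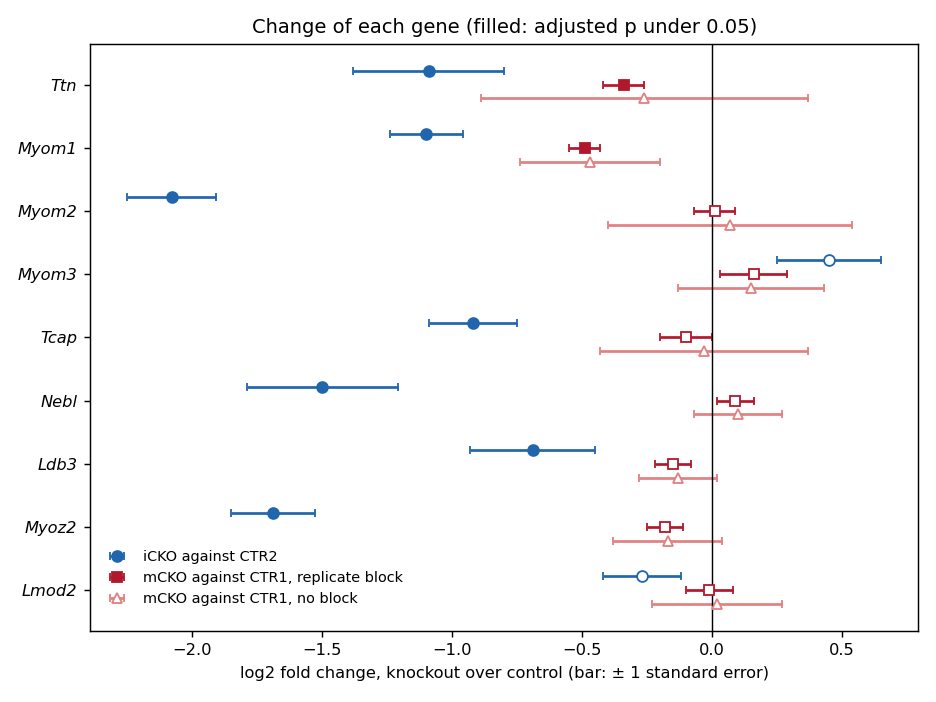
Log2 fold change of each gene (horizontal axis, knockout over control, bars of 1 standard error) for iCKO against CTR2, and for mCKO against CTR1 with and without the replicate number as a block; filled symbols passed an adjusted p of 0.05. In iCKO 7 genes lay between -2.08 and -0.69, and in mCKO Ttn and Myom1 alone were called, at -0.34 and -0.49 with the block.

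Markers of cell types moved in the same libraries. Summed over 12 markers, cardiomyocyte genes held 54412 to 64543 CPM in iCKO libraries and 98123 to 110763 CPM in CTR2 libraries, with 8 of 12 called lower, 0 higher and a median log2 fold change of -0.82. Summed fibroblast markers were at 3308 to 5243 CPM in iCKO and 941 to 1122 CPM in CTR2, with 6 of 10 higher and 1 lower. Summed macrophage and monocyte markers were at 610 to 1085 CPM in iCKO and 250.1 to 326 CPM in CTR2, with 9 of 10 higher. Endothelial markers summed to 1033 to 1120 CPM in iCKO and 1372 to 1562 CPM in CTR2, with 4 of 10 lower. Skeletal muscle markers summed to 3027 to 3633 CPM in iCKO and 2731 to 3025 CPM in CTR2. Of 8 tested, 5 were higher and 2 lower, with a median log2 fold change of 2.58, and 2 of 14 were at 0 in all iCKO libraries. Ckm alone held 2615 to 2832 CPM in CTR2 libraries, most of each sum, and 912 to 1154 CPM in iCKO libraries. The sum therefore does not show how the other skeletal muscle markers moved. Atrial markers, which include the stress gene Nppa, summed to 4109 to 8218 CPM in iCKO and 176 to 401 CPM in CTR2, with 3 of 6 tested higher and 1 lower. Smooth muscle and pericyte markers had 3 of 8 higher and 3 lower, and erythroid markers 6 of 6 lower. Actn2 stood in both the cardiomyocyte and the Z-disc list, and Ckm in both the skeletal muscle and the M-band list. The part of cell composition in the changes of the 9 genes was not tested.

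Promoter windows of 300 bases, 250 before and 50 after an annotated start, were given by RefSeq on GRCm38.p6 for 7 of the 9 genes, in 11 windows. They were read for 5 motifs of muscle transcription on both strands: the MEF2 motif, the CArG box bound by serum response factor, the E-box CANNTG, the GATA motif GATAAG and the nuclear receptor half-site AGGTCA. Those of 3 genes that fell in iCKO and have a single window given, with a MEF2 motif or a CArG box, are shown here. Motifs are in capitals, and the gene's own strand is read 5′ to 3′. Ttn is read from chr2:76982498-76982797 on the minus strand, Myom1 from chr17:71019307-71019606 on the plus strand, and Myoz2 from chr3:123034938-123035237 on the minus strand.
Ttn: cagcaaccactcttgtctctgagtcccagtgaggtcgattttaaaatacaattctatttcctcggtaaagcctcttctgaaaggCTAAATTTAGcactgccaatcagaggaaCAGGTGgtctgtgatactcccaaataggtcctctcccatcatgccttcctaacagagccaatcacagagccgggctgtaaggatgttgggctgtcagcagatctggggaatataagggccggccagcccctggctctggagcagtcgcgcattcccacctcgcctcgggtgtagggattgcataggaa
Myom1: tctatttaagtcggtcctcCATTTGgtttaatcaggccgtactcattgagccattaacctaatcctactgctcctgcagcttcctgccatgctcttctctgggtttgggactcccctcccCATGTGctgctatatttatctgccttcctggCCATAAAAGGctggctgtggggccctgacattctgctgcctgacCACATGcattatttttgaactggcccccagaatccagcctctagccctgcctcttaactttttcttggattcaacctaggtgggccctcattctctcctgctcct
Myoz2: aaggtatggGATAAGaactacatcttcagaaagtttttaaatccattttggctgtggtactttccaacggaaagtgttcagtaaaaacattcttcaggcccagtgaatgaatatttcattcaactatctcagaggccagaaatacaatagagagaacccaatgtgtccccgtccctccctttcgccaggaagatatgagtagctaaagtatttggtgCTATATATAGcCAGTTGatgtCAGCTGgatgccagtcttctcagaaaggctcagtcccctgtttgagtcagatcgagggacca
Counted from the start site, the Ttn window held a MEF2 motif at -166 and an E-box at -138. In Myoz2 a MEF2 motif began at -33, ahead of 2 E-boxes, and a GATA motif at -241. In Myom1 a CArG box began at -99, and the window held 3 E-boxes. The Myom1 window lies inside the gene's RefSeq span, downstream of its first base at 71003332, for which no window was given. No motif overlapped another in these windows. Counted by gene, 2 of the 7 had a MEF2 motif and 3 a CArG box (Myom1, Nebl and Ldb3), 6 an E-box, 1 a GATA motif and 1 a nuclear receptor half-site. Of all 32851 windows in the RefSeq table, 0.557% held a MEF2 motif, 1.63% a CArG box, 72.3% an E-box, 7.44% a GATA motif and 16.3% a nuclear receptor half-site. Nebl has 4 windows and Ldb3 2, and a letter match is no evidence of binding.

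In the constitutive mCKO hearts most of the set was not called by any fit. Without the replicate number as a block, edgeR's quasi-likelihood test called 0 of the 9 genes, 0.0% of all 13353 genes tested in either direction, and none of the 9 had an unadjusted p under 0.05 where 1164 of all genes did. DESeq2 called 310 genes and limma-voom 0, with none of the 9 genes among them. The deleted gene Ddx5 was itself missed by this edgeR fit (log2 fold change -1.29 ± 0.20, adjusted p = 0.17) and by limma-voom (adjusted p = 0.17). It was called by DESeq2 (adjusted p = 1.4e-06) and by edgeR with the block (-1.26 ± 0.12, adjusted p = 0.0019). A missing call without the block is thus no evidence of no change. Same-numbered mCKO and CTR1 libraries deviated together, a pattern carried by replicate 3, while libraries 1 and 2 correlated to a like degree across numbers. The fit with the block is therefore given beside the fit without it. It called 7.32% of genes higher and 6.45% lower (11.8 and 3.55% with library sizes alone). With the block 2 of the 9 genes, Ttn and Myom1, were called lower and none higher, and the median log2 fold change of the 9 was -0.10, against 0.00 over all genes. All 9 genes overlapped between the groups, whereas 7.69% of all genes did not overlap with mCKO higher and 7.30% with mCKO lower.

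Ttn was at 5174, 4918 and 1248 CPM in mCKO libraries, against 6105, 5614 and 1867 CPM in CTR1 libraries. Within each replicate number the mCKO library was the lower one, while replicate 3 of either group was far below the others. The mean was 83.5% of control, and the log2 fold change was -0.34 ± 0.08 with the block (adjusted p = 0.018) and -0.26 ± 0.63 without it (adjusted p = 0.99). Without both replicate 3 libraries, where 3.85% of genes were called higher and 3.94% lower, it was -0.22 (adjusted p = 0.060), and without the replicate 3 pair under the block -0.22 (adjusted p = 0.11). Myom1 was at 1548, 1690 and 951 CPM in mCKO libraries, against 2160, 2205 and 1443 CPM in CTR1 libraries. It too was lower in mCKO within each number, at a mean of 72.1% of control (log2 fold change -0.49 ± 0.06, adjusted p = 8.2e-04 with the block, and -0.47 ± 0.27, adjusted p = 0.74 without). Its value without both replicate 3 libraries was -0.43 (adjusted p = 0.0053).

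The other 7 genes were not called in mCKO by either fit. Myom2 was at 2744, 2250.5 and 890 CPM in mCKO libraries, against 2430.0, 2107 and 1051 CPM in CTR1 libraries, with mCKO the higher in replicates 1 and 2 and the lower in 3 (log2 fold change 0.01 ± 0.08 with the block, adjusted p = 0.95). Myoz2 was at 949, 1037 and 1456 CPM in mCKO libraries, against 1197, 1112 and 1553.5 CPM in CTR1 libraries. Here mCKO was lower within each number, replicate 3 was the highest library of either group, and the change was -0.18 ± 0.07 (adjusted p = 0.11 with the block). Nebl was at 389, 395 and 281.5 CPM in mCKO libraries, against 356, 353 and 287 CPM in CTR1 libraries (0.09 ± 0.07, adjusted p = 0.43 with the block). Ldb3 was at 1428, 1558 and 1126 CPM in mCKO libraries, against 1556, 1551 and 1406 CPM in CTR1 libraries (-0.15 ± 0.07, adjusted p = 0.20 with the block). For both genes the groups overlapped. Tcap, Lmod2 and Myom3 averaged 97.7, 101 and 111% of control, with log2 fold changes of -0.10 ± 0.10, -0.01 ± 0.09 and 0.16 ± 0.13 with the block (adjusted p = 0.60, 0.96 and 0.47). Tcap was at 2678.5, 2032 and 979 CPM in mCKO libraries, against 2290.2, 2296 and 1236 CPM in CTR1 libraries, and Lmod2 at 662, 559 and 365 CPM against 552, 592 and 422 CPM. Myom3 was at 8.59, 9.15 and 5.92 CPM in mCKO libraries, against 8.46, 8.20 and 4.73 CPM in CTR1 libraries. In all 3 the replicate 3 library was the lowest of its group. Cardiomyocyte markers summed to 68173 to 101321 CPM in mCKO libraries and 79755 to 114199 CPM in CTR1 libraries, with 6 of 12 called lower and 0 higher with the block. In the same fit 6 of 10 fibroblast and 9 of 10 macrophage and monocyte markers were called higher. Atrial markers summed to 780 to 1797 CPM in mCKO and 223 to 410 CPM in CTR1 libraries, with 2 of 6 tested called higher and 0 lower. Of 7 skeletal muscle markers tested, 3 were called higher and 1 lower. The markers' part in the Ttn and Myom1 values was not tested.

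Across all genes, the replicate 3 libraries of mCKO, CTR1 and iCKO were lower for longer transcripts. Each library was set against the other 2 of its group, and genes were binned by their longest coding transcript in GENCODE M21, which was known for 97.4% of tested genes in the mCKO experiment and 97.5% in the iCKO experiment. In mCKO replicate 3 the median log2 difference was 0.28 for transcripts of up to 2 kb, -0.02 from 2 to 5 kb, -0.20 from 5 to 10 kb and -0.26 over 10 kb. In CTR1 replicate 3 these medians were 0.22, -0.03, -0.15 and -0.20. In iCKO replicate 3 they were 0.44, -0.01, -0.51 and -0.88, the steepest of the 12 libraries. Ttn was at 24.7% of the mean of the other 2 libraries in mCKO replicate 3, 46.5% in iCKO replicate 3 and 31.9% in CTR1 replicate 3. Myoz2, with a coding transcript of 1.18 kb, was instead at 147% in mCKO replicate 3, 119% in iCKO replicate 3 and 135% in CTR1 replicate 3. Length did not order the 9 genes. Of the 3 with transcripts of up to 2 kb, Myoz2 alone was above the other libraries, while Lmod2, with 1.98 kb, was at 59.7% in mCKO replicate 3, 81.7% in iCKO replicate 3 and 73.7% in CTR1 replicate 3. Tcap, with 0.95 kb, was at 41.6% in mCKO replicate 3, 81.4% in iCKO replicate 3 and 53.9% in CTR1 replicate 3. Across all genes the median log2 fold change of iCKO against CTR2 was 0.19, 0.05, -0.10 and -0.25 in the 4 length bins, and that of mCKO against CTR1 lay between -0.01 and 0.02. The log2 fold changes of Myom2 and Myoz2 in iCKO, -2.08 and -1.69 with transcripts of 5.08 and 1.18 kb, lay below the medians of their bins. The part of length in the changes was not tested.

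**Figure D3:**
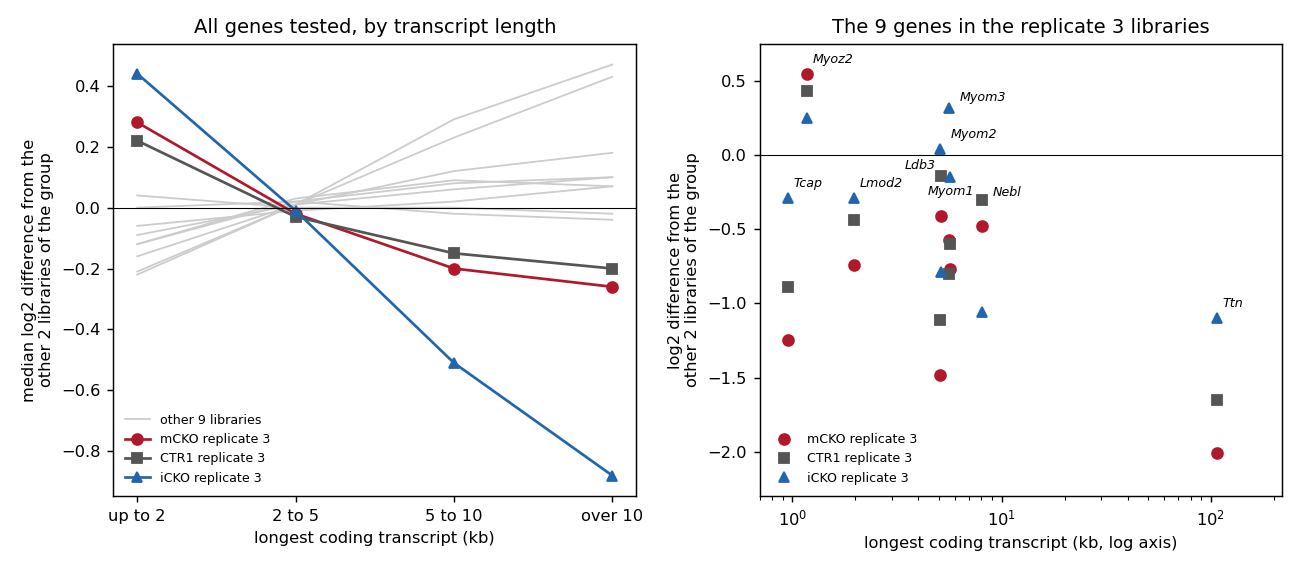
Left, median log2 difference of a library from the other 2 of its group (vertical axis) for genes in 4 bins of longest coding transcript (kb); right, the same difference for the 9 genes in the 3 replicate 3 libraries of mCKO, CTR1 and iCKO against transcript length on a log axis. The coloured replicate 3 libraries fell with length, iCKO replicate 3 to -0.88 over 10 kb, and Ttn lay between -2.01 and -1.10 while Myoz2 lay above 0 in all 3.

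The change in iCKO was set against the change in mCKO in 1 fit of all 12 libraries, as the log2 fold change of iCKO over CTR2 minus that of mCKO over CTR1. The difference passed the test, with iCKO the lower, for 3 of the 9 genes, while 11.0% of 13871 genes were called lower and 9.88% higher (7.95 and 15.5% with library sizes alone). Myom2 differed by -2.2 ± 0.53 (edgeR quasi-likelihood adjusted p = 0.013), its mean being 23.6% of control in iCKO and 105% in mCKO. Nebl differed by -1.64 ± 0.36 (adjusted p = 0.0078), at 35.3% of control in iCKO and 107% in mCKO. Myoz2 differed by -1.55 ± 0.27 (adjusted p = 0.0023), at 31.0% in iCKO and 89.1% in mCKO. A replicate block was also put on both experiments, although numbers did not pair iCKO with CTR2 libraries (r = 0.0583, -0.0896 and -0.161). With this block 6 of the 9 were called lower and 14.8% of all genes lower and 13.3% higher. It added Tcap (-0.87, adjusted p = 0.021), Myom1 (-0.65, adjusted p = 0.016) and Ttn (-0.86, adjusted p = 0.048). Without the block those 3 were at -0.93 ± 0.45, -0.66 ± 0.30 and -0.87 ± 0.72 (adjusted p = 0.17, 0.14 and 0.42). Ldb3 (-0.60 ± 0.29), Lmod2 (-0.32) and Myom3 (0.27) were not called by either fit (adjusted p = 0.17, 0.45 and 0.63 without the block). The experiments differ in the form of Cre, tamoxifen and time since deletion, and these cannot be told apart. Age is known here only for mCKO and CTR1.

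A ratio of 2 genes within a library does not depend on how libraries are scaled. The pairs were chosen with earlier results of these data known, so their p-values are a description. The log2 count ratio of Myom2 to Myom1 was -0.27, -0.72 and -0.30 in iCKO libraries, against 0.40, 0.64 and 0.65 in CTR2 libraries. In mCKO libraries it was 0.83, 0.41 and -0.10, against 0.17, -0.07 and -0.46 in CTR1 libraries. Thus the iCKO ratio lay below CTR2 without overlap, by -0.99 (two-sided exact permutation p = 0.1), and the mCKO ratio was 0.50 above CTR1 with overlap (exact permutation p = 0.3), though above it within each replicate number, which this test does not use. The ratio of Myom3 to Myom1 was above control without overlap in both experiments, by 1.54 in iCKO and by 0.66 in mCKO (exact permutation p = 0.1 in each). Lmod2 to Ttn was higher by 0.89 in iCKO without overlap (exact permutation p = 0.1) and by 0.33 in mCKO with overlap (exact permutation p = 0.5), again above CTR1 within each number. The coding transcripts of Lmod2 and Ttn measure 1.98 and 106.82 kb. Over all genes the median iCKO log2 fold change was 0.19 up to 2 kb and -0.25 over 10 kb. The part of length in this ratio was not tested. Tcap to Ttn differed by 0.24 in both (exact permutation p = 0.6 in iCKO and 0.5 in mCKO). The smallest p that 3 against 3 allows is 0.1, so no ratio could pass 0.05, and over the 8 tests the smallest Benjamini-Hochberg adjusted p was 0.2. Per kilobase, Myom2 made up 45.1 ± 4.25% of the summed myomesin level in iCKO and 62.1 ± 2.36% in CTR2, and 58.9 ± 7.71% in mCKO and 50.5 ± 5.46% in CTR1 (SD, n = 3). Myom3 made up 0.416 ± 0.0862% in iCKO and 0.0981 ± 0.00885% in CTR2.

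**Figure D4:**
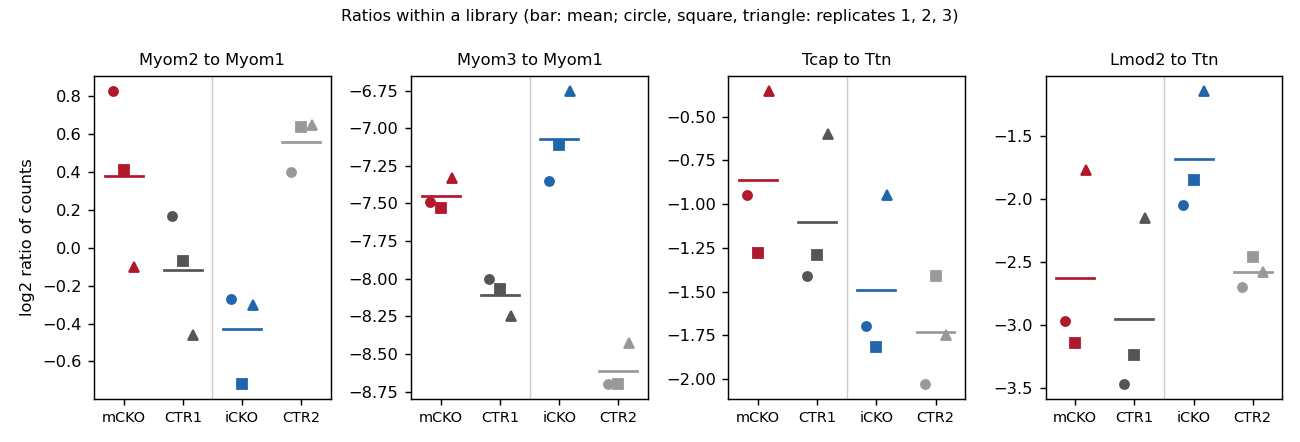
Log2 ratio of counts of 2 genes within each library (vertical axis, own range in each panel) for 4 pairs in mCKO, CTR1, iCKO and CTR2, with a bar at the mean of 3 libraries. The Myom2 to Myom1 ratio lay below control in every iCKO library, and the Myom3 to Myom1 ratio lay above control in every library of both knockouts.

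Other genes of the sarcomere scaffold were called in both directions. Of 57 tested in iCKO, 21 were called higher and 13 lower, with a median log2 fold change of 0.12 against 0.03 over all genes (26 higher and 8 lower with library sizes alone). Beside them stand the 25.2% of all genes called higher and 19.5% called lower. Other Z-disc genes were mostly higher, 13 of 21 higher and 3 lower, with a median of 0.87. Flnc, the actin crosslinker filamin C, was at 4284, 3505 and 3050 CPM in iCKO libraries, against 635, 479 and 698 CPM in CTR2 libraries (log2 fold change 2.58 ± 0.21, adjusted p = 9.2e-05). Pdlim3, which binds alpha-actinin, rose by 2.19 ± 0.26 (adjusted p = 4.0e-04) at 88.2 to 121 CPM in iCKO and 15.7 to 30.4 CPM in CTR2. Myoz1, the calsarcin of fast skeletal muscle and a close relative of Myoz2, rose by 4.20 ± 0.49 (adjusted p = 3.6e-04). It had 85, 56 and 116 counts in iCKO libraries and 2, 3 and 5 counts in CTR2 libraries, where it lay near the 3 counts that a count of 0 allows.

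Of 15 genes of the M-band and of titin kinase partners, 7 were called lower in iCKO and 1 higher, with a median of -0.56 (4 lower and 2 higher with library sizes alone). Ckm, the muscle creatine kinase bound at the M-band, was at 1076, 912 and 1154 CPM in iCKO libraries, against 2832, 2625 and 2615 CPM in CTR2 libraries (-1.36 ± 0.15, adjusted p = 2.9e-04). Lrrc39, which encodes the M-band protein myomasp, fell by 2.04 ± 0.23 (adjusted p = 3.2e-04), at 29.8 to 49.3 CPM in iCKO and 129.5 to 191.5 CPM in CTR2. Cmya5, for myospryn, fell by 2.93 ± 0.39 (adjusted p = 7.0e-04), at 107 to 366.5 CPM in iCKO and 1741 to 1954 CPM in CTR2. Exons of Ckm, Lrrc39 and Cmya5 overlap genes of the opposite strand over 15.5, 20.1 and 20.7% of their bases, and whether the counting used the strand is not given in the sources used here.

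Genes whose products bind the elastic I-band of titin were higher in iCKO, 4 of 5 and 0 lower, with a median of 2.11. Fhl1, a LIM protein of the titin N2B region, was at 869, 748 and 965 CPM in iCKO libraries, against 180, 228 and 190 CPM in CTR2 libraries (2.11 ± 0.17, adjusted p = 9.5e-05). Ankrd2, an ankyrin repeat protein of the titin N2A region, had 427, 486 and 1397 counts in iCKO libraries and 8, 3 and 2 counts in CTR2 libraries, where 2 libraries were at or below the 3 counts that a count of 0 allows (7.01 ± 0.71, adjusted p = 2.0e-04). Replicate 3 was the highest iCKO library, and without it the log2 fold change was 6.18 (adjusted p = 5.4e-05). Ankrd23, of the same family, rose by 1.69 ± 0.25 (adjusted p = 0.0012), but shares 78.2% of its exon bases with Gm42417 on the same strand. Among nebulin relatives and thin filament end genes 2 of 11 were higher and 2 lower, with a median of -0.08 (4 higher and 1 lower, with a median of 0.13, with library sizes alone). Of these, Capza1, a subunit of the barbed-end capping protein, rose by 1.31 ± 0.14 (adjusted p = 2.8e-04), Lasp1, a small relative of nebulin, rose by 0.72 ± 0.16 (adjusted p = 0.0066), and Tmod4, a pointed-end capping tropomodulin, fell by 1.0 ± 0.21 (adjusted p = 0.0053). Of 5 RNA-binding proteins known to act on splicing of Ttn, Rbfox1 fell to 7.63, 6.34 and 3.43 CPM in iCKO libraries, against 65.7, 72.3 and 57.3 CPM in CTR2 libraries (-3.49 ± 0.29, adjusted p = 9.7e-05). Ptbp1 rose by 1.01 ± 0.14 (adjusted p = 8.8e-04). Its exons overlap E130317F20Rik, Plppr3 and Gm17134 on the opposite strand over 6.2, 5.3 and 9.2% of their bases. The other 3 of the 5 were not called, of which Rbm20 was at -0.58 (adjusted p = 0.054) and Mbnl1 at 0.36 (adjusted p = 0.071). Without iCKO replicate 3 both were called, Rbm20 at -0.43 and Mbnl1 at 0.37 (adjusted p = 0.026 each), and with library sizes alone Mbnl1 was called at 0.57 (adjusted p = 0.014). Leaving out iCKO replicate 3 gave 21 higher and 15 lower of the 57.

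In mCKO, with the block, 4 of 55 of these genes were called higher and 14 lower, with a median of -0.05, beside 7.32 and 6.45% of all genes (4 higher and 9 lower without both replicate 3 libraries, and none without the block). The M-band list held 7 lower of 15 and 0 higher. Lrrc39 was at 122, 126 and 93.8 CPM in mCKO libraries, against 192, 190 and 138 CPM in CTR1 libraries (-0.60 ± 0.06, adjusted p = 2.5e-04 with the block). Cmya5 fell by 0.61 ± 0.06 (adjusted p = 1.7e-04), at 672 to 758 CPM in mCKO and 1016 to 1187 CPM in CTR1. Speg, a kinase related to obscurin, fell by 0.43 ± 0.07 (adjusted p = 0.0025). Among Z-disc genes 1 of 20 was higher and 4 lower, including Pdlim7 (-0.45 ± 0.07, adjusted p = 0.0027), Xirp2 (-0.41 ± 0.08, adjusted p = 0.0061) and Nexn (-0.34 ± 0.06, adjusted p = 0.0064). Ankrd1, the cardiac ankyrin repeat protein of the titin I-band, was at 2559, 2178 and 1160.1 CPM in mCKO libraries, against 1214, 890 and 542 CPM in CTR1 libraries (1.15 ± 0.06, adjusted p = 1.0e-05 with the block). It was called higher in iCKO too (3.15 ± 0.63, adjusted p = 0.0045), at 5362 to 6262 CPM against 145 to 1222 CPM in CTR2. The Ankrd1 difference between the experiments was called with the block (2.40, adjusted p = 0.020) but not without it (1.95, adjusted p = 0.10). In mCKO Fhl1 fell by 0.51 ± 0.07 (adjusted p = 8.2e-04) and Fhl2 by 0.22 ± 0.06 (adjusted p = 0.033). Tmod4 rose by 0.52 ± 0.08 (adjusted p = 0.0026) and Capza1 by 0.31 ± 0.08 (adjusted p = 0.033), the latter not called without both replicate 3 libraries (0.24, adjusted p = 0.16). Rbfox1 fell by 1.22 ± 0.09 (adjusted p = 4.8e-05). The difference between the experiments was called higher for 17 of 57 and lower for 6, beside 9.88 and 11.0% of all genes. It was called for Fhl1 (2.60 ± 0.32, adjusted p = 3.1e-04), for Tmod4 (-1.55 ± 0.30, adjusted p = 0.0043), for Pdlim7 (1.77, adjusted p = 0.0033) and for Xirp2 (1.37, adjusted p = 0.048), each called in opposite directions in iCKO and in mCKO with the block. The mCKO call of Xirp2 was lost without both replicate 3 libraries (-0.37, adjusted p = 0.096). The difference was also called for Rbfox1 (-2.32 ± 0.47, adjusted p = 0.0054), Lrrc39 (-1.48 ± 0.29, adjusted p = 0.0051) and Cmya5 (-2.37 ± 0.43, adjusted p = 0.0030), lower in both. It was also called higher for Flnc, Cryab, Myoz1, Des, Synpo2l, Csrp3, Pdlim1, Pdlim3, Pdlim5, Xirp1, Ankrd2, Ankrd23, Capza1 and Ptbp1, and lower for Ckm and Neb, at adjusted p between 4.5e-04 and 0.049. Neb itself was not called in mCKO with the block (1.01, adjusted p = 0.28). In iCKO it was called with the block (-1.52, adjusted p = 0.026) but not without it (-1.19, adjusted p = 0.094). Its libraries spread widely, at 18.2, 5.78 and 3.50 CPM in iCKO and 9.11, 31.8 and 27.55 CPM in mCKO.

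**Figure D5:**
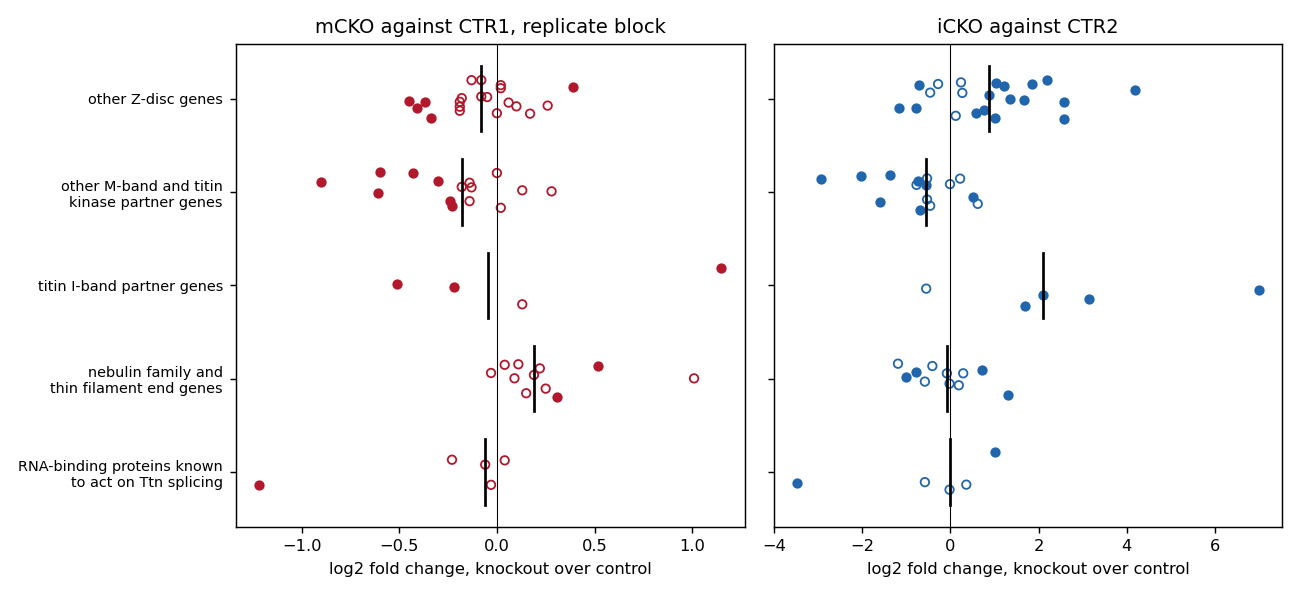
Log2 fold change, knockout over control (horizontal axis, own range in each panel), of the other genes of 5 sarcomere scaffold lists, with the replicate block in mCKO (left) and without it in iCKO (right); each point is a gene, filled where its adjusted p was under 0.05, and the black bar is the list's median. In iCKO the medians were 0.87 for Z-disc, -0.56 for M-band and 2.11 for I-band partner genes.

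Over the 12 libraries, each gene centred on the mean of its experiment, the 9711 genes with an average log2 CPM of at least 3 were ranked by their correlation with each member. These correlations hold the group differences and the shared libraries, depth and replicate 3 shifts, and are a description. The level of Ttn was most like that of Dsp (r = 0.987), Rbm20 (0.987) and Phldb1 (0.984). Dsp encodes desmoplakin of the desmosome, and Rbm20 a splicing repressor of Ttn. Myoz2 was most like Vegfb (0.997), Rdm1 (0.994) and Chchd3 (0.992), and Nebl like Sipa1l2 (0.990). Myom1 and Myom2 were most like Nudcd3 (0.984) and Rfc1 (0.985), and Tcap, Ldb3 and Lmod2 like Rsrp1 (0.978), Casd1 (0.984) and Ccdc47 (0.975). Myom3 was below the level needed. Among the other 8 genes themselves r was highest for Ttn and Lmod2 (0.948) and lowest for Myoz2 and Lmod2 (0.184), over 12 libraries, with Myoz2 and Ttn at 0.296.

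By RefSeq on GRCm38.p6 all 9 genes are protein coding and lie apart from each other on the genome. Ttn lies on chromosome 2 from 76703980 to 76982557, and Nebl on the same chromosome from 17342673 to 17734949. The others are Myom1 on chromosome 17 (71003332 to 71126856), Myom2 on chromosome 8 (15057653 to 15133420), Myom3 on chromosome 4 (135758800 to 135815571), Tcap on chromosome 11 (98383811 to 98384953), Ldb3 on chromosome 14 (34526699 to 34590314), Myoz2 on chromosome 3 (123006206 to 123035003) and Lmod2 on chromosome 6 (24597771 to 24605414). GENCODE M21 gives Ttn 345 merged exons and 21 coding transcripts, the most of the set, and counts per gene do not separate the isoforms. Ttn shares 453 exon bases (0.388%) with Gm13938 and Myom1 207 (1.98%) with Myl12a, each on the opposite strand. No other member overlapped another gene's exons.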

How the data were processed

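Left ventricular RNA was sequenced in 12 libraries. Per the labels' protocols, libraries were made with a stranded mRNA kit. HISAT2, DESeq and genome build GRCm38 are named per the submitters' processing notes. Their versions, the annotation and the strand used in counting were not given in the sources used here. Raw counts per gene, whole numbers, were deposited by the authors in 1 table of mCKO with CTR1 (17260 genes) and 1 of iCKO with CTR2 (17325 genes). No pair of replicates of a group agreed within sampling noise.

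From these counts, genes kept by filterByExpr (minimum count 10, total 15) were scaled by TMM and tested with robust edgeR 4.0.16 quasi-likelihood fits in R 4.3.3, each experiment on its own, with two-sided Benjamini-Hochberg values called at 0.05. After ± stands the standard error of a log2 fold change unless SD is named. The difference between models used all 12 libraries. Calls were checked with DESeq2 1.42.0, limma-voom (limma 3.58.1), library sizes alone, no filter, a replicate block and libraries left out. The fits were run on simulated data with 200 changed genes and a common spread. The simulation held no replicate 3 shift, no length skew and no shared replicate effect, so it does not test the fits under these. Same-numbered mCKO and CTR1 libraries deviated from their group means together (correlations of 0.464, 0.532 and 0.823, all above 0.1), a pattern seen in the data and carried by replicate 3. Correlations across numbers were alike for mCKO 1 with CTR1 2 (0.553) and mCKO 2 with CTR1 1 (0.529). The data therefore do not pair libraries 1 and 2 by number. What a replicate number marks is not stated in the labels. Ratios were compared by exact permutation tests. Members, gene lists and ratios were chosen with earlier results of these data known. Genes named are the 9 members, Ddx5, up to 3 called genes with the smallest adjusted p per list and comparison (22 in all), and the 3 most alike genes per member, of which some are printed. Further list genes called in the difference, and Rbm20 and Mbnl1, were named after their values were seen.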

Additional observations from a re-analysis of the deposited data

Results flagged for a closer look

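For 3 genes the change in iCKO differed from the change in mCKO by the test of the difference itself (edgeR quasi-likelihood, Benjamini-Hochberg over 13871 genes). Myom2 differed by -2.2 (adjusted p = 0.013), Nebl by -1.64 (adjusted p = 0.0078) and Myoz2 by -1.55 (adjusted p = 0.0023) on the log2 scale. In iCKO all 3 libraries lay below all 3 CTR2 libraries for each of these genes, and in mCKO they overlapped with CTR1. Over 25 alternatives each of the 3 kept its sign and its call, with adjusted p of at most 0.038 for Myom2 and Nebl and 0.0093 for Myoz2. The form of Cre, tamoxifen and time since deletion differ between the experiments and cannot be told apart.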

How the results depend on the processing

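In iCKO 7 genes were called with library sizes alone (where Myom3 was called and Ldb3 not), without the filter, by DESeq2 and limma-voom, and 5 to 7 with a library left out. Numbers did not pair iCKO with CTR2 libraries (r = 0.0583, -0.0896 and -0.161), and with the replicate block 7 were called there. The Tcap call was lost under the block without replicate 2 (-0.81, adjusted p = 0.058). In mCKO 0 genes were called, but 2 with the replicate block under either scaling, 1 to 2 with the block and a pair left out, and 1 without both replicate 3 libraries. Of the other Z-disc, M-band, I-band and thin filament end genes, without the list of RNA-binding proteins, 0 were called in mCKO, 1 by DESeq2, 17 with the block, 16 with the block and library sizes alone, 14, 10 and 5 with the block and pair 1, 2 or 3 left out, and 12 without both replicate 3 libraries. In the difference between models 3 genes were called, 6 with the block, 5 without both replicate 3 libraries and 3 to 6 with libraries left out. The mCKO Myom3 to Myom1 ratio was 0.52 without both replicate 3 libraries. For 5 genes the sign in mCKO turned under some alternatives, and no value with a turned sign was called. With a library or pair left out the values lay between -0.63 and 0.16 for Ttn, -0.25 and 0.42 for Myom2, -0.08 and 0.31 for Myom3, -0.37 and 0.28 for Tcap, and -0.18 and 0.22 for Lmod2. Tcap was at 0.04 with library sizes alone and without both replicate 3 libraries, and Lmod2 at -0.01 with the block and by limma-voom. With the block and a pair left out, Myom2 was at -0.08 and -0.03, Tcap at 0.02 and Lmod2 at -0.15 where the sign turned. The cause was not tested. With 3 libraries a group, ratio tests could not pass 0.05, and counts of the low gene Myom3, 102 to 279 per library, limit its precision.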
